A study of Mus musculus with 8 samples.

Results

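The cryptochromes and the regulators of their stability were taken as 5 genes of 21887 protein-coding genes: Cry1 and Cry2, Csnk1d and Csnk1e, and Usp2. Every peak of 6 deposited ChIP-seq lists was assigned to a gene when its centre lay inside the RefSeq span of that gene or within 20 kb of it. This gave 51 of 137716 peaks and intervals. All values came from Beta-TC6, a mouse insulinoma line that serves as a model of the pancreatic beta cell, grown without treatment and harvested at confluence. The cells were fixed with DSG, a protein crosslinker, and then with formaldehyde. Each of the 6 targets (the factors BMAL1, CLOCK and PDX1, and the chromatin targets H3K4Me2, H3K27Ac and H2A.Z) had 1 library and 1 peak list, and 2 input libraries served for peak calling. The labels give no genotype difference, time of day or synchronisation, and the line comes from a tumour, which limits it as a model of normal islets. There were no replicates, so no difference below has a replicate check and no test was made.

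In the circadian clock, BMAL1 and CLOCK bind DNA as a pair at E-boxes and switch on the Cry and Per genes. CRY1 and CRY2 are the main repressors of BMAL1 and CLOCK, and they close the feedback loop. Casein kinase 1 delta and epsilon, the products of Csnk1d and Csnk1e, phosphorylate PER proteins and so set how long the PER and CRY complexes last. USP2 is a ubiquitin-specific protease whose substrates include clock proteins. In beta cells the clock is known for its part in insulin secretion, and PDX1 is a factor that maintains the beta-cell state. H3K4Me2 and H3K27Ac are histone marks of promoters and enhancers, and H2A.Z is a histone variant often found at start sites.

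Libraries held 12892080 to 26678241 tags and lists held 1378 to 41140 peaks. Peak height is given as the authors' normalized tag count, the number of tags in a peak scaled to 10000000 tags per library. Ranks are within 1 list, from the highest normalized tag count down, and tag intervals are exact Poisson 95% intervals that cover counting error only. The label of the cells was checked on 7 beta-cell genes (Ins1, Ins2, Pdx1, Mafa, Nkx6-1, Slc2a2 and Iapp). All 7 had H3K27Ac intervals, with a highest normalized tag count of 394 at Ins1 to 5857 at Pdx1. Among 4 genes of other cell types, Gcg reached 68.5 and Alb 31.3, and Amy2a5 and Ptprc had no H3K27Ac interval. Other lists did not separate these groups. H3K4Me2 ran from 18.7 at Ins1 to 397 at Pdx1, against 12.7 at Alb to 124 at Gcg. PDX1 ran from 12.3 at Ins2 to 49.6 at Mafa, against 11.8 at Ptprc to 17.9 at Gcg. Amy2a5 had no peak in either list.

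The sequence before the start site is shown for the 3 genes whose start windows overlapped a BMAL1 or CLOCK peak. Each holds the 250 bases before the start site, 5′ to 3′ on the strand of the gene, from RefSeq on GRCm38.p6, which shares its coordinates with mm10. Capitals mark the E-box CACGTG, which reads the same on both strands, and the related E-prime box CACGTT, which reads AACGTG on the other strand.
Cry1: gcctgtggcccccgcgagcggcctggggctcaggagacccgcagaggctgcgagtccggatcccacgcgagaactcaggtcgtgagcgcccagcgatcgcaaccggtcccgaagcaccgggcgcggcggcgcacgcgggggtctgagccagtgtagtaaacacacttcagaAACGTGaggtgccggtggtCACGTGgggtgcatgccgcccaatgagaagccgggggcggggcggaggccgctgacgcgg
Cry2: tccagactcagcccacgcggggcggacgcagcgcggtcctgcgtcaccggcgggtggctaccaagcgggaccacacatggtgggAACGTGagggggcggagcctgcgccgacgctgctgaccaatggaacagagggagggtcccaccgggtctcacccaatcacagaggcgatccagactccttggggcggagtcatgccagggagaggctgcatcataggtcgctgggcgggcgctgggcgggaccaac
Usp2: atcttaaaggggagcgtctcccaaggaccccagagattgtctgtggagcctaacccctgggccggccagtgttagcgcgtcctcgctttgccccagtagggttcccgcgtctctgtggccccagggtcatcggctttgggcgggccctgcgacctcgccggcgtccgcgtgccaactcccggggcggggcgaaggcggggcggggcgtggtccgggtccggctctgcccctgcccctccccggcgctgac
The search for these letters covered whole start windows of 300 bases, from 250 before to 50 after the start: chr10:85185005-85185304 for Cry1 and chr2:92434020-92434319 for Cry2, both on the minus strand, and chr9:44084670-44084969 for Usp2 on the plus strand. The Cry1 window held 1 E-box (chr10:85185109-85185114) and 1 E-prime box (chr10:85185128-85185133). The Cry2 window held 1 E-prime box (chr2:92434230-92434235) and no E-box. The Usp2 window held neither, and neither did the 4 start windows of Csnk1e. Csnk1d had no entry in the table. Of 32851 start windows in the table, 7.15% held an E-box, 4.68% an E-prime box and 88.6% neither. Among the 335 windows that overlapped a CLOCK peak, 47.5% held an E-box, 10.1% an E-prime box and 46.6% neither, so the Usp2 window was of a common kind in that group. A match to these letters describes the sequence and was not tested as a binding site.

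BMAL1 peaks were found at both cryptochromes and at no other of the 5 genes, and CLOCK peaks at the cryptochromes and at Usp2. Thus 2 of 5 genes had a BMAL1 peak, against 14.0% of all protein-coding genes, and 3 of 5 had a CLOCK peak, against 8.23%. At least 1 BMAL1 peak that overlapped a CLOCK peak lay at Cry1 and at Cry2, which 2.00% of all genes had. The spans of the 5 genes were longer than usual, with search windows of 68.6 to 93.4 kb against a median of 57.2 kb, so the shares over all genes refer to shorter windows. PDX1 had 1 peak, at 1 of 5 genes, against 41.2% of all genes, and 5 genes are too few to call this a difference. All 5 genes had intervals of H3K4Me2, H3K27Ac and H2A.Z in their windows, against 74.8%, 63.1% and 60.5% of all genes.

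**Figure D1:**
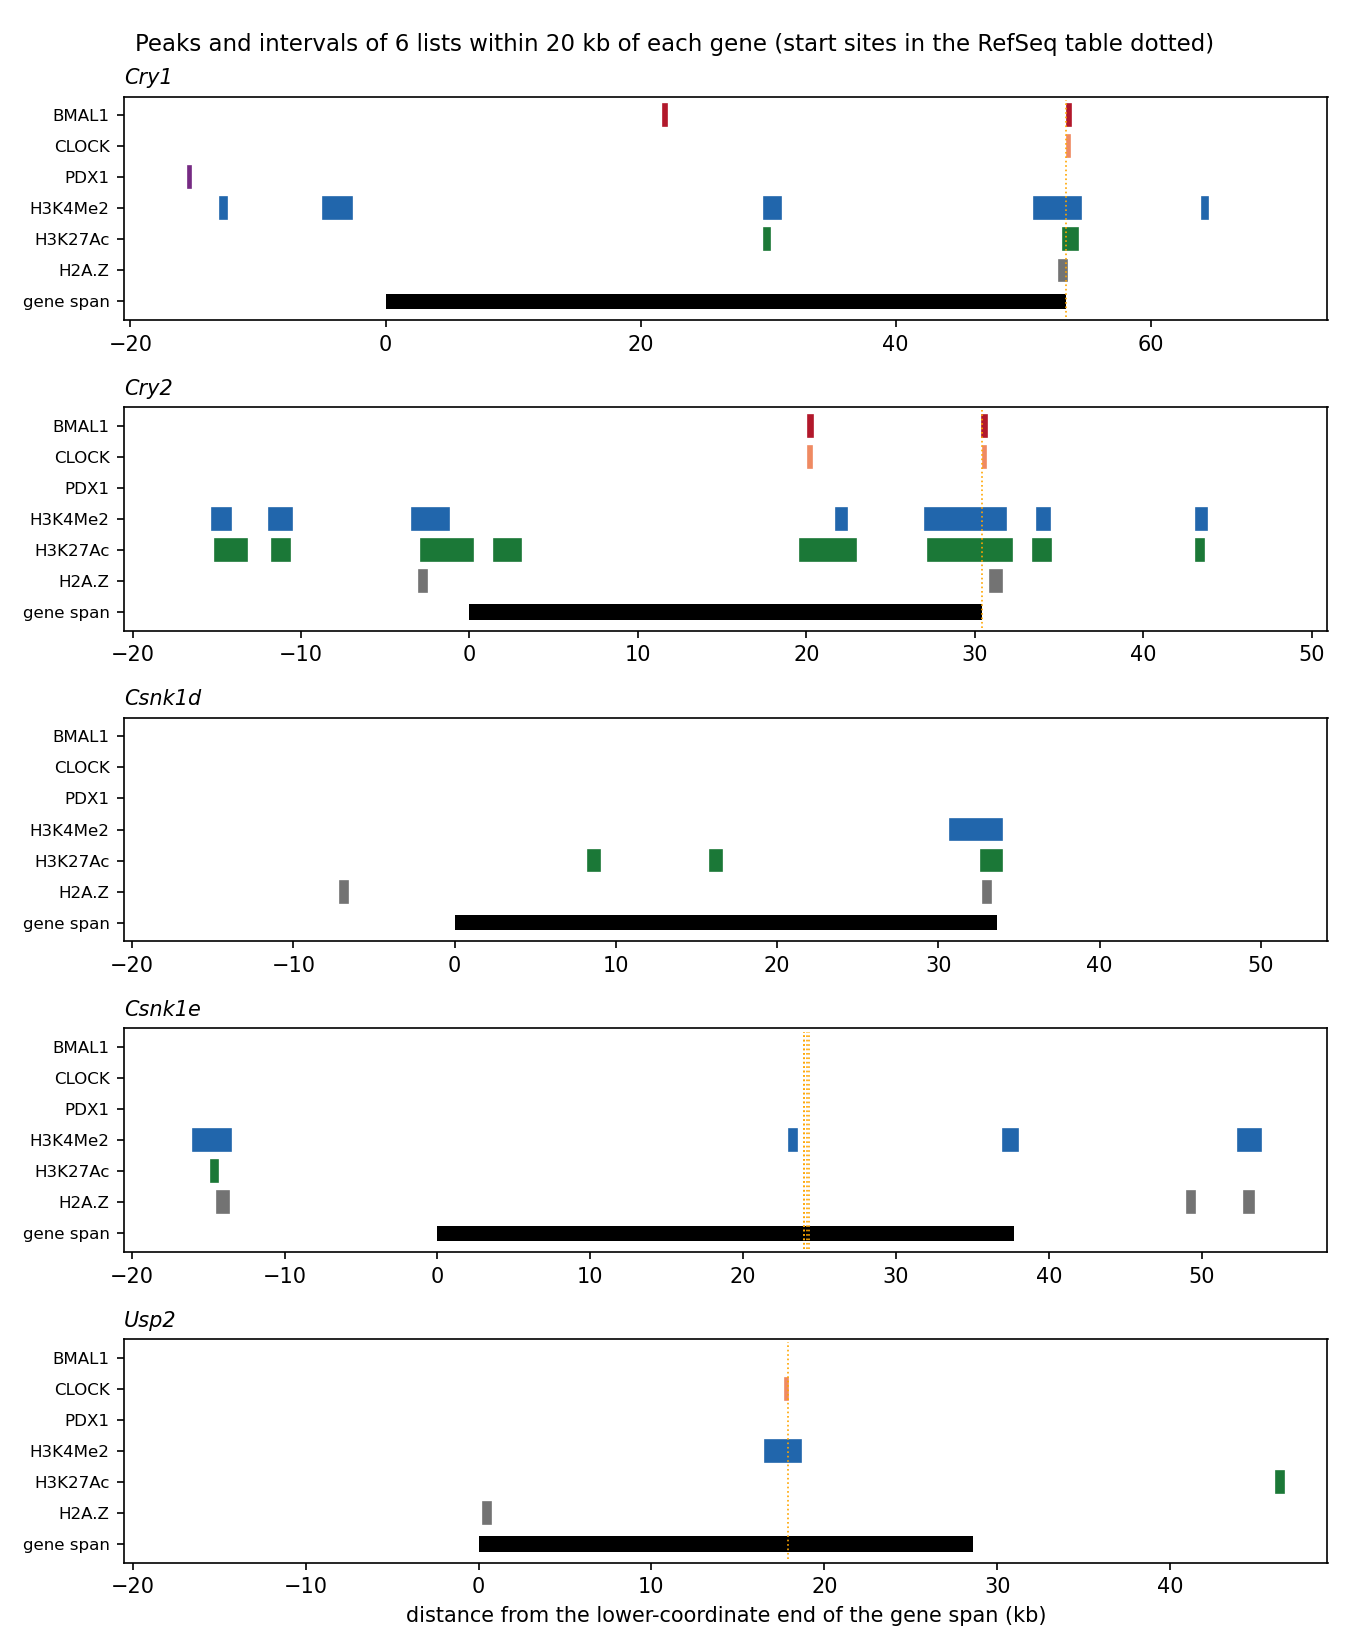
Peaks and intervals of the 6 lists along Cry1, Cry2, Csnk1d, Csnk1e and Usp2, each drawn from 20 kb below to 20 kb above the gene span (black), with the distance in kb from the lower-coordinate end on the x axis and 1 list per row. Boxes span each peak from start to end with a thin outline, and dotted lines are start sites in the RefSeq table (none for Csnk1d). BMAL1 and CLOCK peaks sit together at the Cry1 start and at 2 places of Cry2, and Usp2 has a CLOCK peak alone.

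Cry1 carried the highest peaks of the group. The BMAL1 peak at chr10:85185099-85185429 was centred 210 bp upstream of the start site, with a normalized tag count of 125.7 from 162 tags (interval 138 to 189). It ranked 8 of 4125 BMAL1 peaks and had a fold of 22.1 over input and 47.0 over the surrounding 10 kb. The CLOCK peak at chr10:85185159-85185363 was centred 207 bp upstream, with a normalized tag count of 127.4 from 228 tags (interval 199 to 260), and ranked 4 of 1378. The centres lay 3 bp apart. Both peaks overlapped H3K4Me2 and H3K27Ac intervals, and the wider BMAL1 peak also touched the H2A.Z interval over the start. Of the 258 BMAL1 peaks that overlapped CLOCK, 18.2% overlapped all 3 chromatin lists, as the one at Cry1 did. The E-box and E-prime box of the Cry1 window lay at the edge of the BMAL1 peak, 152 and 133 bp from its centre, and outside the CLOCK peak. Only 146 of the 205 bases of the CLOCK peak lay within the window, so the bases farther upstream were not searched.

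Cry1 had a further BMAL1 peak inside its span, 31464 bp downstream of the start site at chr10:85153425-85153755, with a height at the median of its list. It held 13 tags (interval 6.92 to 22.2), for a normalized tag count of 10.1 and rank 1625, a value that 1369 BMAL1 peaks shared and 1132 fell short of. It overlapped no peak or interval of the other 5 lists, a state shared with many BMAL1 peaks, since 73.8% of them lay in none of the 3 chromatin lists. The PDX1 peak in the Cry1 window (chr10:85116203-85116437) had 15 tags, a normalized tag count of 7.67 and rank 23358 of 34883. It lay inside the neighbouring gene Tmem263, 15380 bp beyond the Cry1 span, and overlapped no other list.

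At Cry2, BMAL1 and CLOCK coincided at 2 places, at the start site and about 10 kb inside the gene. Of 21887 genes, 22, or 0.101%, had 2 or more such shared sites in their windows. Other clock genes were among them: Arntl, Dbp and Bhlhe41 had 2 such sites, and Nr1d1 and Bhlhe40 had 3. The start-site BMAL1 peak at chr2:92434070-92434400 had a normalized tag count of 36.5 from 47 tags (interval 34.5 to 62.5) and rank 52, centred 166 bp upstream. The CLOCK peak at chr2:92434134-92434338 had 39.1 from 70 tags (interval 54.6 to 88.4) and rank 35, with its centre 1 bp from that of BMAL1. The E-prime box of the Cry2 window lay 2 bp from the BMAL1 centre and 3 bp from the CLOCK centre, in contrast to the more distant matches at Cry1. Both peaks lay in H3K4Me2 and H3K27Ac intervals and neither in H2A.Z.

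The internal Cry2 site also lies within the span of D930015M05Rik, a long non-coding RNA gene that overlaps Cry2, so the peaks cannot be assigned to either gene alone. The BMAL1 peak there (chr2:92423738-92424068) had a normalized tag count of 14.7 from 19 tags (interval 11.4 to 29.7) and rank 213. The CLOCK peak (chr2:92423772-92423976) had 21.8 from 39 tags (interval 27.7 to 53.3) and rank 80, with the centres 29 bp apart. Both peaks lay in an H3K27Ac interval of 3345 bp (chr2:92423258-92426603, normalized tag count 125.1) and outside H3K4Me2, whose nearest interval began at 92425393.

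By tags the order of the sites was the same in both libraries: Cry1 start, Cry2 start, Cry2 internal. By fold over input CLOCK kept this order, with values closer together than the tags (25.11, 22.93 and 19.16). In BMAL1 the Cry1 start (22.1) stayed highest, while the Cry2 internal site (12.96) stood above the Cry2 start (10.69). The ratio of tags at the Cry1 start to tags at the Cry2 start was 3.45 for BMAL1 (exact 95% interval 2.48 to 4.88) and 3.26 for CLOCK (2.48 to 4.32). The ratio of the Cry2 start to the Cry2 internal site was 2.47 for BMAL1 (1.42 to 4.46) and 1.79 for CLOCK (1.20 to 2.73). These intervals cover counting error only, and the tag ratios were not adjusted for input. Every one lay above 1, and the BMAL1 and CLOCK intervals overlapped for both ratios. Levels of BMAL1 and CLOCK were not compared with each other, since the antibodies and peak widths differed.

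**Figure D2:**
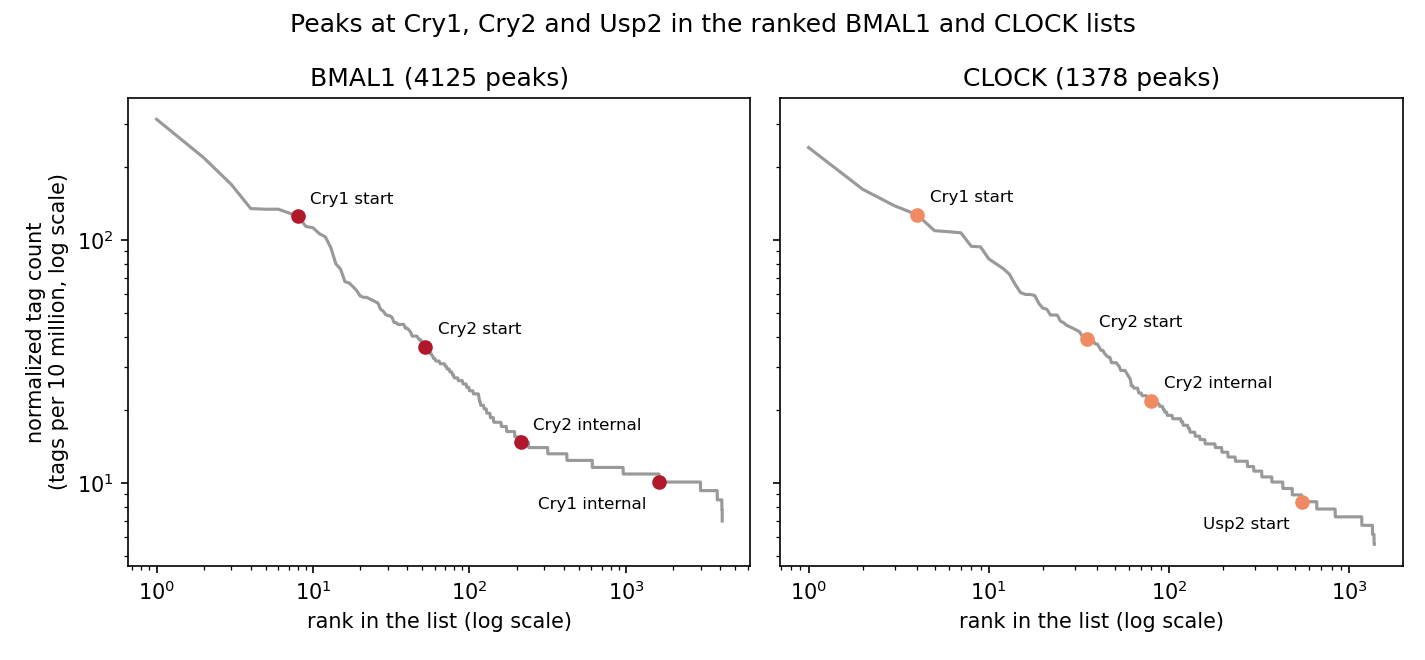
Normalized tag count (tags per 10000000, log scale) against rank (log scale) for all BMAL1 and CLOCK peaks (grey lines), with the peaks at Cry1, Cry2 and Usp2 as dots. The Cry1 start ranks 8 and 4, the Cry2 start 52 and 35 and the Cry2 internal site 213 and 80, while the Cry1 internal BMAL1 peak ranks 1625 and the Usp2 CLOCK peak 546.

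**Figure D3:**
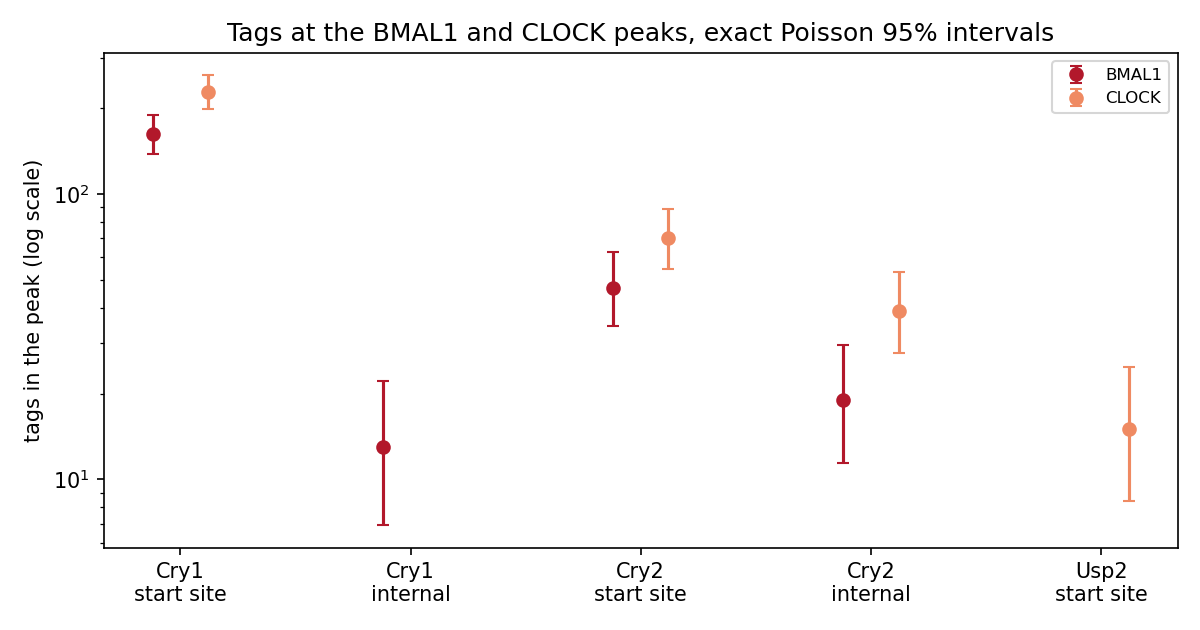
Tags in each BMAL1 and CLOCK peak of Cry1, Cry2 and Usp2 on a log scale, with exact Poisson 95% intervals as bars. The intervals of the Cry1 start, with 162 and 228 tags, stand clear of those of all the other sites, while the Cry1 internal BMAL1 peak with 13 tags and the Usp2 CLOCK peak with 15 are the lowest.

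Usp2 had a CLOCK peak and no BMAL1 peak, as did 4.55% of all genes. The CLOCK peak at chr9:44084722-44084926 was centred 96 bp upstream of the RefSeq start site at 44084920, which lies within the Usp2 span and inside the overlapping non-coding gene Gm39325. It held 15 tags (interval 8.40 to 24.7), for a normalized tag count of 8.38 and rank 546 of 1378, with a fold of 7.37 over input. It lay in an H3K4Me2 interval (chr9:44083604-44085683, normalized tag count 101.2) and in neither H3K27Ac nor H2A.Z, as 12.6% of CLOCK peaks lay in H3K4Me2 without H3K27Ac. The same normalized tag count would amount to 10.8 tags in the shallower BMAL1 library, where peaks were 1.62 times as wide and where 25 of 4125 peaks (0.606%) had a lower normalized tag count. This conversion does not compare the factors, since antibodies and peak widths differed and peaks also had to pass filters against input and local signal. Why no BMAL1 peak was listed at Usp2 was not tested.

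Neither kinase gene had a BMAL1, CLOCK or PDX1 peak. The lowest peaks of these lists had a normalized tag count of 6.98 for BMAL1, 5.59 for CLOCK and 5.11 for PDX1. Weaker signal at Csnk1d and Csnk1e would not be listed. Higher signal could also be absent from the lists, since peaks had to pass a score threshold and filters against input and local signal. The input filter removed 3569 of 8475 putative BMAL1 peaks. The closest BMAL1 peak to Csnk1d was centred more than 20 kb from the span (chr11:121031511-121031841) and had 14 tags.

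Overlaps with the start windows alone gave the same 3 genes. Among 17492 protein-coding genes with a start window in the table, 1.18% had a window on a BMAL1 peak and 1.64% on a CLOCK peak. Cry1 and Cry2 had both and Usp2 had CLOCK alone. No start window of the 4 genes with an entry overlapped PDX1, against 0.875% of all genes. H3K4Me2 covered the start windows of Cry1, Cry2 and Usp2 (45.3% of all genes), H3K27Ac those of Cry1 and Cry2 (37.6%), and H2A.Z that of Cry1 alone (21.7%). None of the 4 Csnk1e windows overlapped any list.

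Cry2 had the largest share of its window in H3K27Ac and in H3K4Me2 of the 5 genes, while for H2A.Z the largest share was at Csnk1e (2.51%, against 1.72% at Cry2). Its window held 8 H3K27Ac intervals that covered 25.0% of its length, against a median of 1.67% over all genes, and 0.891% of genes had as large a share. The highest, over the start site, spanned chr2:92430875-92435883 with a normalized tag count of 380.5 and rank 2209 of 29735. It was 5008 bp wide, against a list median of 1163 bp, and 25.8% of the list had more normalized tags per kb. By fold over input it ranked 9868, and by the authors' score 15150. H3K4Me2 covered 16.5% of the Cry2 window in 7 intervals, with 263.1 at the start site, rank 370 of 41140. Some of these intervals lay at Mapk8ip1, a neighbour whose span ends 2300 bp below Cry2, and cannot be told apart as belonging to Cry2. A smaller interval of each mark (14.9 for H3K27Ac and 12.7 for H3K4Me2) was nearest to Slc35c1, a neighbour on the other side. An H2A.Z interval lay upstream of the Cry2 start (92434543 to 92435253, normalized tag count 13.5) and outside the start window.

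Cry1 had a narrower H3K27Ac interval at its start (chr10:85184786-85185977), with a normalized tag count of 104.2, rank 9707 and a fold of 4.33 over input, near the required 4. It was 1191 bp long, against 5008 bp for the interval at the Cry2 start. Per kb the Cry1 interval had 87.5 normalized tags and the Cry2 interval 76.0. H3K4Me2 at the Cry1 start (chr10:85182564-85186246) reached 223.8, rank 677, and H2A.Z (chr10:85184520-85185154) reached 18.4, rank 3426 of 26455. The H3K4Me2 intervals at the Cry1 and Cry2 starts were 3682 and 4831 bp wide, against a list median of 939 bp. Per kb they had 60.8 and 54.5 normalized tags, and 7.26% and 12.9% of the list had more. By fold over input they ranked 18470 and 16590, and by the authors' score 34298 and 5559. A pair of smaller H3K4Me2 and H3K27Ac intervals coincided inside Cry1 near 85161365, with 47.6 and 11.9, where no factor peak lay.

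The 2 casein kinase genes differed in their marks. At the upper end of the Csnk1d span, H3K4Me2 (chr11:120988419-120991669, normalized tag count 109.1), H3K27Ac (chr11:120990343-120991664, 146.7) and H2A.Z (chr11:120990489-120990989, 11.3) overlapped each other. The H3K4Me2 and H3K27Ac intervals also reached into LOC115486436, a long non-coding RNA gene that lies 14 bp beyond the span. They cannot be assigned to Csnk1d alone. The H3K27Ac interval there had a fold of 13.8 over input and 111 normalized tags per kb, above the start-site intervals of both cryptochromes on that scale. Smaller H3K27Ac intervals of 20.1 and 14.1 lay inside the gene. At Csnk1e, H3K4Me2 reached 55.9 at the upper end of the span (chr15:79454866-79455799) and 12.0 in an interval centred 696 bp downstream of the nearest table start site (chr15:79440872-79441372). By fold over input the order of these 2 intervals was reversed, at 4.15 for the first, near the required 4, and 33.84 for the second. No H3K27Ac or H2A.Z interval was centred inside the Csnk1e span. Its H3K27Ac interval (chr15:79403009-79403509, 14.1) lay at or beside the neighbour Tmem184b, as did its highest H3K4Me2 interval (114.7) and its highest H2A.Z interval (24.3).

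At Usp2 the H3K4Me2 interval at the internal start site was the sole one in the window and ranked 6271. Its H3K27Ac interval (chr9:44113124-44113624, 26.1) was nearest to the neighbour Rnf26. The H2A.Z interval (chr9:44067260-44067760, 7.56) lay inside the lower end of the span, away from the CLOCK peak. Thus at Csnk1e and Usp2 the H3K27Ac signal counted in the window came from beside another gene, and only Cry1, Cry2 and Csnk1d had H3K27Ac intervals centred inside or nearest to their own spans.

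**Figure D4:**
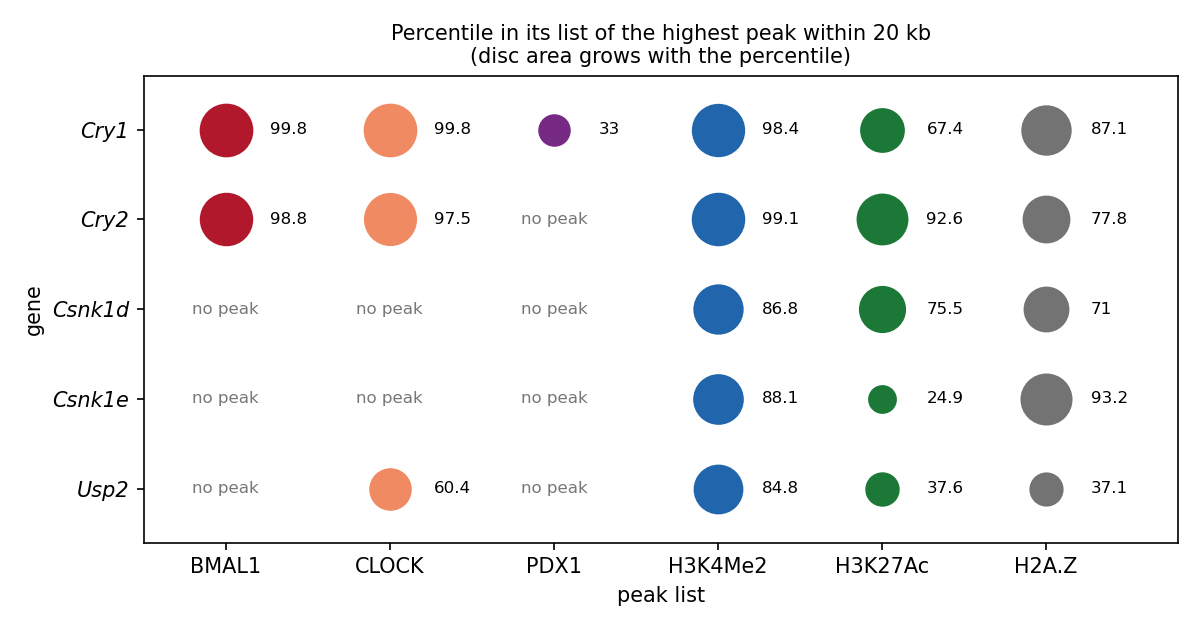
Percentile by normalized tag count, within each list (columns), of the highest peak within 20 kb of each gene (one gene per line). The value 100 is the top of the list, and disc area grows with the percentile. Cry1 and Cry2 stand at 97.5 or above for BMAL1, CLOCK and H3K4Me2, while H3K27Ac ranges from 24.9 at Csnk1e to 92.6 at Cry2.

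Overlaps of the cryptochrome and Usp2 peaks with other lists were set beside the same shares over whole lists. BMAL1 peaks overlapped CLOCK in 3 of 4 cases (6.25% of the whole BMAL1 list), and CLOCK peaks overlapped BMAL1 in 3 of 4 (18.7% of the CLOCK list). Of the 8 BMAL1 and CLOCK peaks, 6 lay in H3K27Ac and 5 in H3K4Me2. Over whole lists, 18.3% of BMAL1 and 62.8% of CLOCK peaks lay in H3K27Ac, and 18.4% and 55.4% in H3K4Me2. Peaks at 1 site share their sequence and chromatin, so these 8 stood for 5 sites.

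Of 18 further clock genes, 15 had a BMAL1 peak (83.3%, against 14.0% of all genes) and 14 a CLOCK peak (77.8%, against 8.23%), and at 14 the peaks overlapped. Their highest BMAL1 peaks ranged from 15.5 to 315 (median 114) and their CLOCK peaks from 10.6 to 241 (median 94.2), against medians of 10.1 and 8.38 over all genes with a peak. Cry1 stood below 7 of them for BMAL1 and below 3 for CLOCK. Cry2 stood below 12 and 11. The CLOCK peak of Usp2 was lower than that of all 14.

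Of 17 further genes of CRY and PER turnover, among them kinases and ubiquitin ligase subunits, 5 had a BMAL1 peak and 5 a CLOCK peak. These shares, 29.4% each, were above the 14.0% and 8.23% of all genes and below those of the clock genes, with no test made. Window lengths of the listed genes were not compared with those of all genes. The medians of 11.6 and 8.38 were close to those over all genes with a peak. A BMAL1 peak overlapped CLOCK at Gsk3a alone (26.4 and 22.9), and that site lay inside Zfp526. Peaks nearest to the listed gene itself were found for 3 of the 5 with BMAL1 (Cul1, Prkaa2 and Dyrk1a, 10.1 to 11.6) and 2 of the 5 with CLOCK (Btrc, 8.38, and Dyrk1a, 6.15). Csnk1d and Csnk1e, with no peak, and Usp2, with a CLOCK peak of 8.38, had values in the range of this second list.

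**Figure D5:**
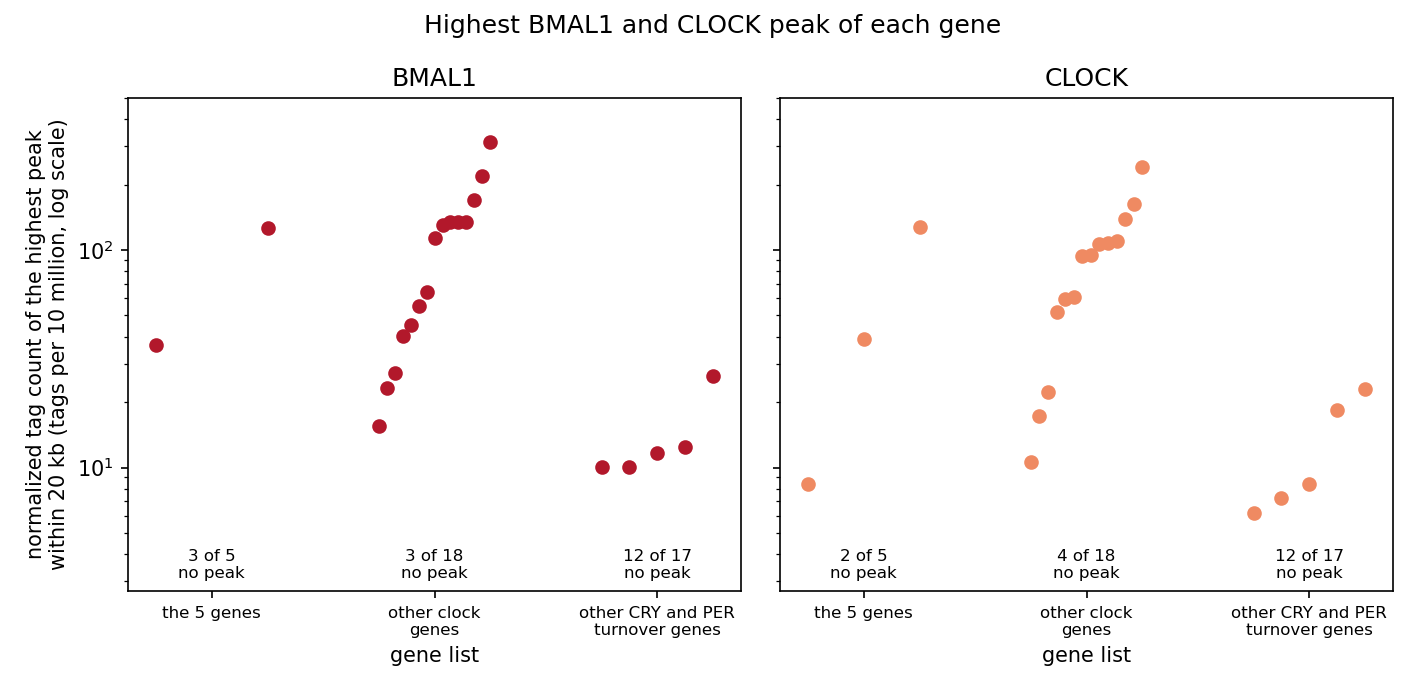
Normalized tag count (log scale) of the highest BMAL1 (left) and CLOCK (right) peak within 20 kb, 1 dot per gene that had a peak, for the 5 genes, 18 other clock genes and 17 other genes of CRY and PER turnover, with the number of genes without a peak below. The horizontal spread within a list only separates the dots, and both cryptochromes lie within the range of the other clock genes.

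Genes most like each member were found by the mean absolute difference of the percentile of the highest peak over the 6 lists, with 0 where there was no peak. For Cry2 they were Gstt2 and Gstt4, which share their peaks, at 1.43 percentile points, and Per2, a repressor partner of CRY proteins, at 1.68. Nearest to Cry1 were Mob3c (4.92), Rint1 (5.73) and Psmd11 (6.54), and nearest to Usp2 were Gm4981 (5.58), Dennd5a (6.22) and Polr3a (7.20). The closest genes to Csnk1d and Csnk1e differed by 0.238 to 1.05 points, where only the 3 chromatin lists carried values.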

How the data were processed

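The submitters' processing notes name Bowtie 1.1.1, HOMER (with no version) and the build mm10 for these Beta-TC6 libraries. The file headers show that HOMER called peaks library by library against an input. Factor peaks had 1 width per list, which was 330 bp in BMAL1, 204 bp in CLOCK and 234 bp in PDX1, and the chromatin intervals varied in width. Per the file headers, the tag threshold of the factor lists was 13, which held for the score column (lowest 13) and not for the tags behind the normalized tag count (lowest 9 in BMAL1, 10 in CLOCK and PDX1). A factor peak also had to reach a fold of 4 over input and over the local 10 kb, a p-value of 1e-04 against input and a false discovery rate of 0.001. The 2 sources for the H2A.Z input differ (sample description and list header), and the input in the header was taken.

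The deposited normalized tag count is a signal scaled to 10000000 tags, and multiplying back gave whole tags for 100% of peaks within rounding. The deposited fold over input is a ratio. The authors' score, a number per peak, served as an alternative ranking. The deposited p-values entered no test. Further deposited columns, where a fraction or count per peak, served only to check the files.

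An overlap meant 1 shared bp or more. Gene spans and start windows came from RefSeq tables for GRCm38.p6. Spans carry no exons, so exon, intron and UTR positions were not determined. Named were all 5 genes with their factor peaks, neighbours in their windows, the 3 most similar genes, and genes of 2 lists with a BMAL1 or CLOCK peak, of which examples are printed and some are not reported here. Members and lists were chosen with earlier results of these data known; the 11 cell-type genes were picked last. The peak search was tested on simulated peaks. Alternatives were other windows, stricter peaks, wider overlap, nearest gene only and other rankings. Software was SciPy 1.17.1, pandas 2.3.3, NumPy 2.4.6 and matplotlib 3.10.9 under Python 3.11.15.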

Additional observations from a re-analysis of the deposited data

How the results depend on the processing

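The counts of genes with BMAL1, CLOCK and H3K4Me2 peaks, and the overlaps of BMAL1 and CLOCK peaks with each other and with the 2 histone marks, moved by at most 1.5 times under every alternative run. With counts this small, a change of 1 gene could stay within that limit. Genes with a CLOCK peak went from 3 to 2 at 0 kb, where the Cry1 peak, centred 207 bp outside the span, was lost. They also went from 3 to 2 with a fold of 8 or more, where the Usp2 peak (7.37) was lost. Genes with a BMAL1 peak went from 2 to 3 at 50 kb, where Csnk1d gained a peak. Genes with an H3K4Me2 interval went from 5 to 4 with a fold of 8 or more. The counts for H3K27Ac, H2A.Z and PDX1 genes, and for PDX1 peaks in H3K27Ac, moved further. Genes with an H3K27Ac interval went from 5 to 3 with windows of 0 kb and 10 kb, with the upper 50% of intervals and with the nearest span only, and to 2 with a fold over input of 8 or more. Genes with an H2A.Z interval went from 5 to 3 at 0 kb and to 2 with a fold of 8 or more. Genes with a PDX1 peak went from 1 to 0 at 0 kb, 10 kb, the upper 50% and the nearest span only, and to 2 at 50 kb, where PDX1 peaks in H3K27Ac went from 0 to 1. Ranked by score, 13 of 21 ranks of highest peaks moved by over 1.5 times, and ranked by fold over input 14 of 21. By score, the start-site ranks of Cry1 were 8 (BMAL1) and 4 (CLOCK) and those of Cry2 53 and 37. By fold over input the ranks were 950 and 270 for Cry1 and 1758 and 330 for the Cry2 start, below the Cry2 internal BMAL1 peak at 1664. The cause was not tested. With 1 library per target no replicate could be left out. No paired analysis was possible because each target had 1 library. Signal weaker than the lowest listed peaks, of 9 tags in BMAL1 and 10 in CLOCK and PDX1, would not be listed. Higher signal that failed the score threshold or the filters against input and local signal would not be listed either.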
